A study of Macaca fascicularis with 16 samples.

Results

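The comparison described here sets the endometrium of postmenopausal cynomolgus macaques (Macaca fascicularis) given estradiol plus tamoxifen against the endometrium of animals given placebo. It uses 8 of the 16 samples of the series, 4 from the combination arm and 4 from the control arm. The samples were taken by their titles and not by any measured value. The animals were assigned at random to parallel arms and treated for 4 months through the diet. The combination arm received 0.25 mg of micronized estradiol and 20 mg of tamoxifen per 1800 kcal of diet, the tamoxifen arm received 20 mg of tamoxifen, the estradiol arm received 0.25 mg of estradiol, and the control arm received neither. All groups share the postmenopausal state. Each sample is a frozen piece of whole endometrium hybridised to 1 rhesus macaque array, so a lower value can mean fewer cells of a type or less RNA per cell, and these cannot be told apart. The question, given by the title of the series, is what the low-dose combination does to the endometrial expression profile.

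Estradiol acts mainly through estrogen receptor alpha, a ligand-activated transcription factor that in the uterus drives growth of glands and stroma and switches on the progesterone receptor and local growth factors. Tamoxifen is a selective estrogen receptor modulator: it binds the same receptor, opposes estrogen in breast and acts as a partial agonist in the endometrium. When both are present they compete for the receptor.

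The deposited values are linear microarray signals, which the submitters scaled to one common trimmed mean. They were analysed as log2(signal + 4.80), so every log2 change below is on that scale and understates changes of dim genes. Of 52865 probe sets, 31660 were bright enough to test, and 10706 genes were followed through their brightest probe set with 1 gene symbol. Signals of different genes use different probes and are not set against each other. The median signal per array ran from 61.1 to 68.1 in the combination arm and from 58.7 to 70.3 in the control arm, and the number of arrays limits the precision. Within the combination arm the arrays correlated at a median r over pairs of 0.969, within the control arm at 0.953 and between these arms at 0.927. The ratio of 3′ to 5′ actin probe sets, a measure of how intact or how far amplified the RNA was, moved with treatment: on the log2 scale it averaged 0.548 ± 0.075 in combination arrays and 0.919 ± 0.113 in control arrays (SD, n = 4 each), with no overlap. The same ratio for GAPDH averaged 0.060 ± 0.022 in combination arrays and 0.147 ± 0.054 in control arrays, with overlap. For EF1a it was alike in the arms, at -0.397 ± 0.099 in combination and -0.404 ± 0.024 in control arrays. The part of RNA quality in the results below was not tested.

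Estradiol plus tamoxifen changed the expression of about 1 gene in 5 relative to placebo. In limma's moderated test with Benjamini-Hochberg adjustment over all probe sets, 2111 of 10706 genes passed an adjusted p of 0.05 (19.7%), of which 1138 rose (10.6%) and 973 fell (9.09%). At the level of probe sets, 5015 of 31660 passed (15.8%), 2548 higher (8.05%) and 2467 lower (7.79%). The 2 directions had similar counts but different sizes: among genes that passed, 437 rose and 136 fell by at least 1 log2 unit, 93 rose and 11 fell by at least 2, and 22 rose and 2 fell by at least 3. The median change was 0.80 over the genes that rose and -0.56 over those that fell, against -0.013 over all genes tested. In 3114 genes (29.1%) the 4 combination arrays did not overlap the 4 control arrays. With 1 array left out at a time, 1333 genes passed without combination 1, the lowest count, and 1737 without control 4, the highest.

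The steepest increases included genes typical of surface and stratified epithelia, neuronal-type genes and binding proteins for growth signals and retinoids. LGALS7B encodes galectin-7, a sugar-binding protein of stratified epithelia. Its signal was 2494, 5849.6, 3357 and 3096 in combination arrays 1 to 4, against 109.8, 22.5, 136 and 42.0 in control arrays 1 to 4. The difference was 52.1-fold (log2 change 5.70 ± 0.61, SE, adjusted p = 0.000114, limma). NPY, the gene of the peptide neurotransmitter neuropeptide Y, read 1841, 574, 2338 and 1876 in combination arrays and 2.30, 55.3, 63.9 and 64.6 in control arrays. The groups lay far apart (log2 change 5.28 ± 0.76, SE, adjusted p = 0.000614), and 1 control array at a near-background signal lifted the change: without control 1 it was 4.48. NEFH, the heavy neurofilament chain of nerve axons, read 535, 923, 796 and 766 in combination arrays and 25.6, 12.2, 58.9 and 24.7 in control arrays (log2 change 4.57 ± 0.48, SE, adjusted p = 9.33e-05). All 3 genes read above 500 in every treated animal and below 150 in every placebo animal. Absence of overlap was a condition for a place among the 15 highest.

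Genes of secreted and membrane proteins were also among the 15 highest. CHRDL2, a chordin-like antagonist of bone morphogenetic proteins, read 447, 292, 227 and 532 in combination arrays and 33.6, 7.95, 23.9 and 3.24 in control arrays (log2 change 4.29 ± 1.02, SE, adjusted p = 0.0111). DLK1, an imprinted ligand-like protein related to the Notch ligands, read 3271, 423, 256 and 464 in combination arrays and 43.6, 50.0, 13.8 and 28.9 in control arrays (log2 change 4.16 ± 0.92, SE, adjusted p = 0.00766). Combination 1 stood above the other 3 in DLK1, and without it the change was 3.38. CPM, a membrane carboxypeptidase that trims peptides at the cell surface, read 2302, 2256, 1835 and 1556 in combination arrays and 92.0, 170.3, 177 and 148 in control arrays (log2 change 3.74 ± 0.42, SE, adjusted p = 0.000158). ADGRG2, an adhesion-type G protein-coupled receptor known from the epididymis, rose by 3.52 on the log2 scale (adjusted p = 0.000607), and TAFA2, a secreted chemokine-like protein, by 3.43 (adjusted p = 0.000512). Among the 15 highest genes without overlap, GJB6, LOC722315 and LOC714616 also rose, by 3.92, 3.84 and 3.45; GJB6 encodes connexin 30, a gap junction protein, and its arrays ran widely, at 39.9, 558, 98.4 and 336 in the combination arm and 2.28, 8.12, 25.1 and 1.40 in the control arm.

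Decreases of comparable size were fewer. HOXA13, the most posterior homeobox gene of its cluster, which marks the lower reproductive tract in development, read 72.0, 36.6, 42.8 and 54.0 in combination arrays and 594, 253, 457 and 755 in control arrays. The signal was 8.83-fold lower under the combination (log2 change -3.14 ± 0.52, SE, adjusted p = 0.00136). PLSCR4, a phospholipid scramblase, read 129.5, 185, 131 and 218 in combination arrays and 987, 489, 1069 and 1089 in control arrays (log2 change -2.39 ± 0.28, SE, adjusted p = 0.000196). ADH7, an alcohol dehydrogenase able to oxidise retinol, read 133, 275, 162 and 529.7 in combination arrays and 1329, 599, 999.7 and 1850.0 in control arrays (log2 change -2.19 ± 0.40, SE, adjusted p = 0.00262). Both genes were lower in all 4 treated animals than in any placebo animal, which was a condition for a place among the 15 lowest. RGS4, a brake on G protein signalling, fell to 663, 917, 489.5 and 662 in combination arrays, against 3595, 1623, 3844 and 2618 in control arrays (log2 change -2.05 ± 0.35, SE, adjusted p = 0.00173).

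Neural adhesion and receptor genes were also among the 15 lowest: CNTN5, a contactin, changed by -2.81 (adjusted p = 0.00792) and GABRB1, a GABA receptor subunit, by -2.45 (adjusted p = 0.00248). PI16, a peptidase inhibitor typical of fibroblasts near vessels, changed by -2.14 (adjusted p = 0.00181). KRT23, a keratin, changed by -1.86 (adjusted p = 0.015), against the direction of most epithelial genes described below. Immune genes in this set were FCER1A, the high-affinity IgE receptor chain of mast cells and basophils, GZMH, a granzyme of cytotoxic lymphocytes, NFATC2, a T cell transcription factor, and IL15, a cytokine that sustains natural killer cells. They changed by -2.05, -1.99, -1.77 and -1.74. TXLNB, GPR20 and XPNPEP2 complete the 15, at -2.25, -1.77 and -1.76. These last 3 calls rest on all 8 arrays: with 1 array left out they passed in 5, 2 and 0 of 8 fits.

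**Figure D1:**
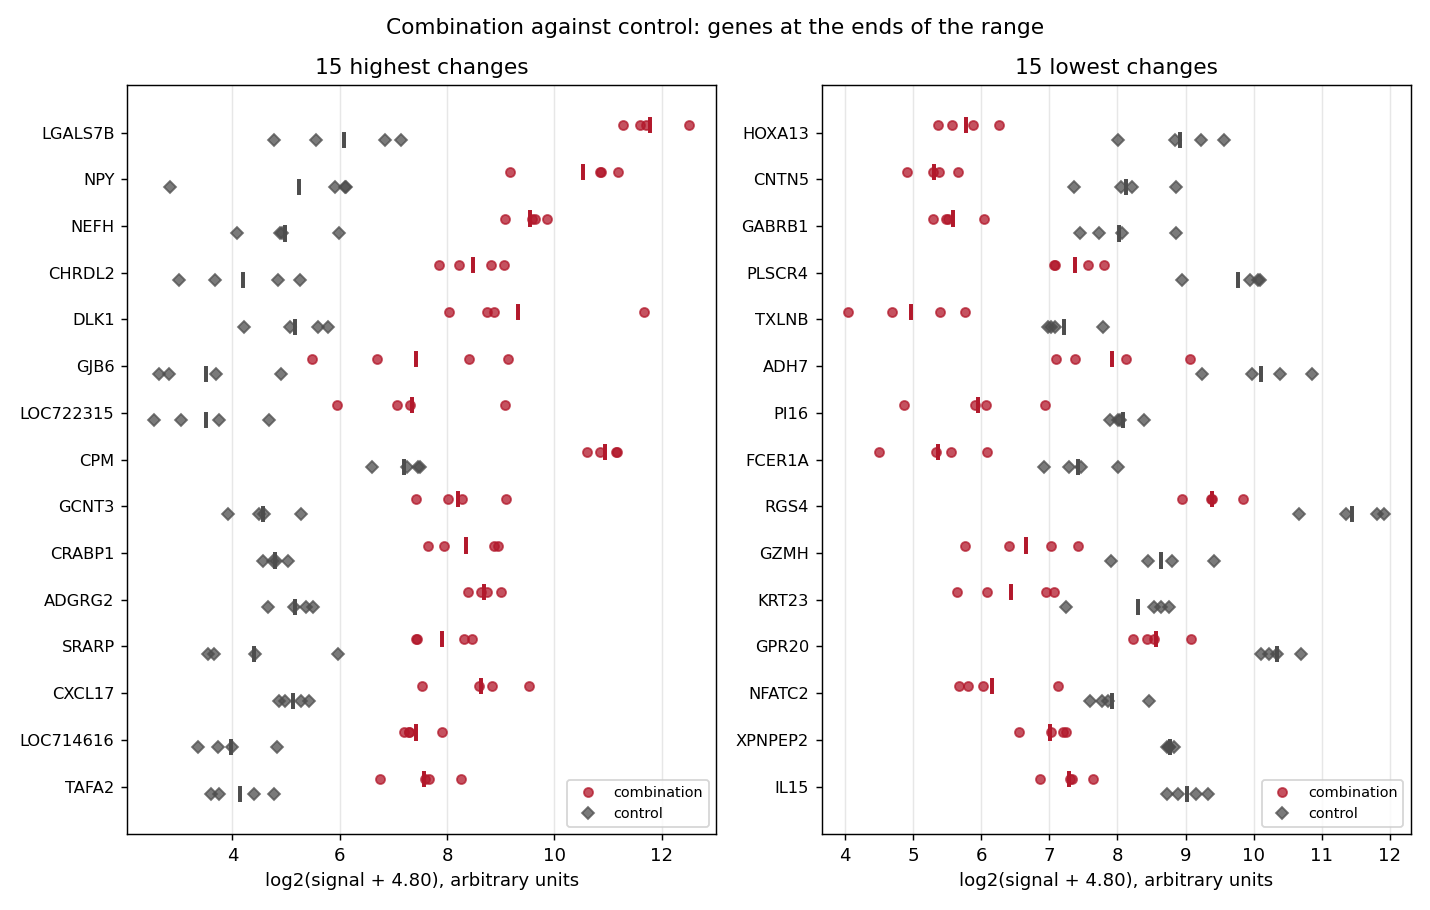
Log2(signal + 4.80) of each array for the 15 genes with the steepest increase and the 15 with the steepest decrease among those whose arrays do not overlap; each gene has its combination points drawn above its control points, and vertical bars mark the mean of 4 arrays. LGALS7B, NPY and NEFH show the widest gaps to the right, at log2 changes of 5.70, 5.28 and 4.57, and HOXA13 the widest to the left, at -3.14.

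Across 39 lists of pathway genes and cell type markers, holding 578 tested genes, the share of members that rose was highest for mucous and secretory genes, at 13 of 17 (76.5%), and for epithelium markers, at 9 of 15. Over all genes 10.6% rose and 9.09% fell, and every list count against placebo below is to be read beside these shares. The share that fell was highest for T and NK cell markers, at 6 of 15, and for FOXO and muscle-atrophy genes, at 7 of 18. None of the 19 smooth muscle markers passed in either direction, although 6 were higher with the fit restricted to the 2 arms compared and 5 without estradiol 4 and tamoxifen 1, and no erythrocyte marker was bright enough to test. Counts and medians of these lists describe them beside all genes, and no list was tested as a set. The lists and their members were chosen with earlier results of these data known, so their shares are not independent of these data.

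**Figure D2:**
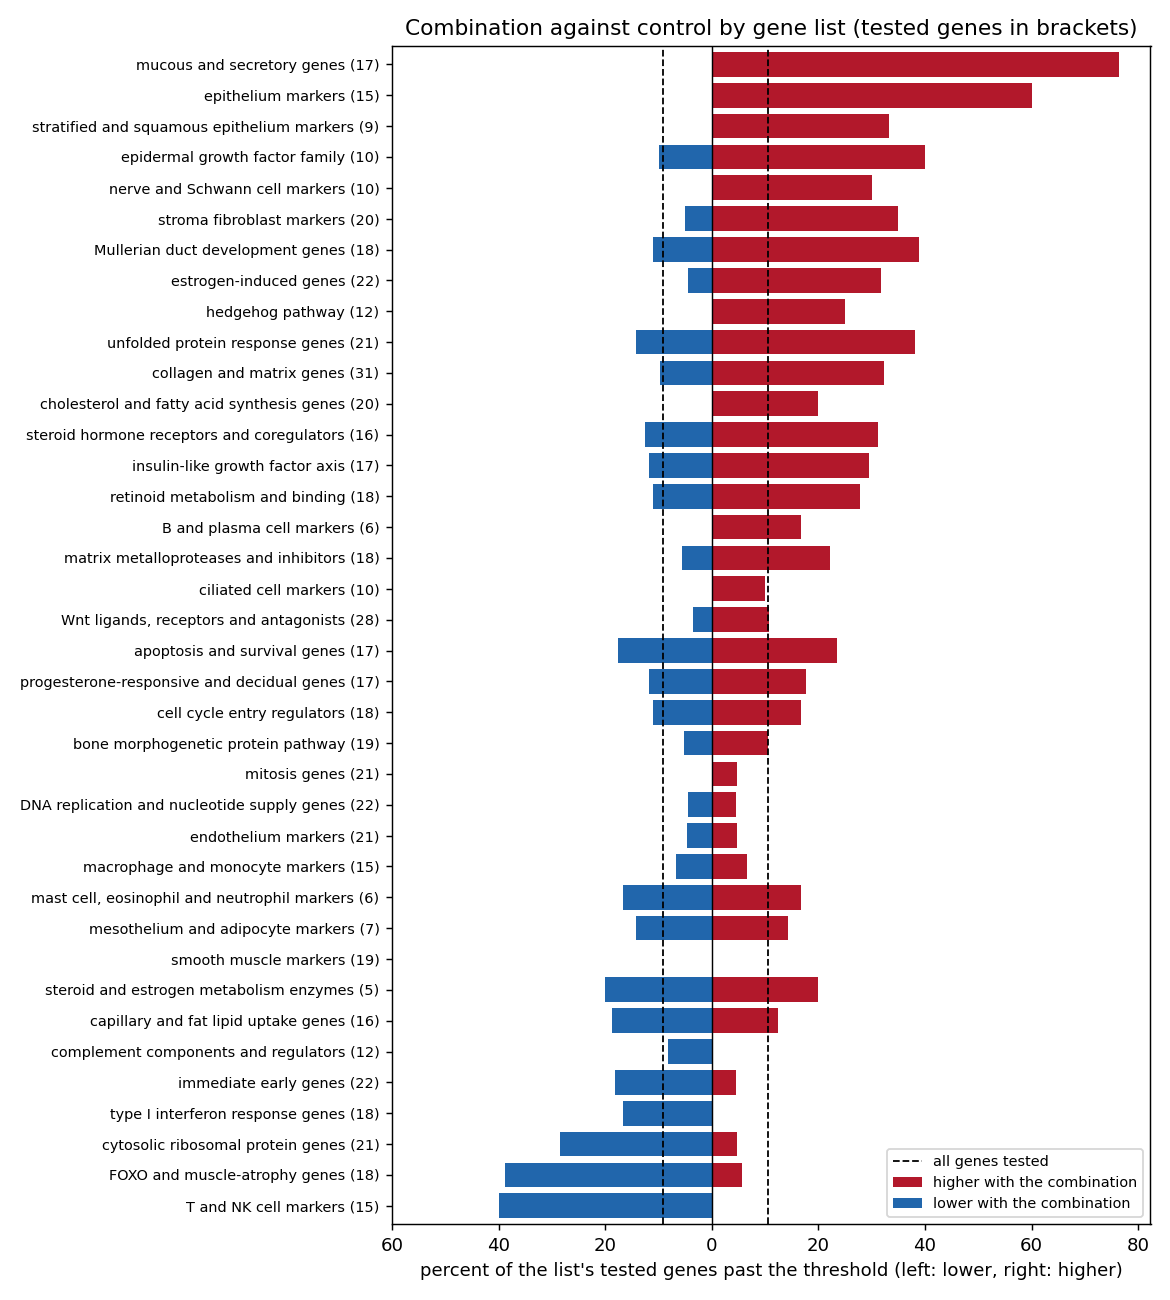
Percent of the tested members of each list that rose (to the right) or fell (to the left) in combination against control arrays at an adjusted p under 0.05; dashed lines mark the shares over all genes, 10.6% and 9.09%. Mucous and secretory genes reach 76.5% to the right, and T and NK cell markers reach 40% to the left. The lists were chosen with earlier results of these data known.

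None of the genes of the estrogen and progesterone receptors passed the test. ESR1, which encodes estrogen receptor alpha, read 447, 575, 540.1 and 400.1 in combination arrays and 325, 242, 442 and 515 in control arrays, with overlap (log2 change 0.40 ± 0.21, SE, adjusted p = 0.207). PGR, the progesterone receptor and a classic estrogen target, read 886, 1239.6, 1151 and 709 in combination arrays and 599.9, 373, 809 and 831 in control arrays (log2 change 0.64 ± 0.22, SE, adjusted p = 0.0657), so its difference did not pass. ESR2 and GREB1, the beta receptor and an estrogen receptor cofactor, had changes of -0.076 and 0.11 with adjusted p of 0.904 and 0.827. Among 16 receptors and coregulators, 5 rose and 2 fell; without combination 1, combination 2 or control 1, 3 rose. The membrane progesterone-binding protein PGRMC1 read 7602, 7331, 6980.1 and 5968 in combination arrays and 4281, 4295, 4872 and 3981 in control arrays (log2 change 0.68 ± 0.12, SE, adjusted p = 0.00202). GATA2, a transcription factor that in mouse uterus works upstream of the progesterone receptor, read 879, 950.1, 1083 and 982 in combination arrays and 1769, 1484, 1396 and 1709 in control arrays (log2 change -0.70 ± 0.11, SE, adjusted p = 0.000812). The coactivator NCOA2 also fell, with a change of -0.38 (adjusted p = 0.00752), but not when all its tested probe sets were averaged (-0.24, adjusted p = 0.0614). NR3C1, the glucocorticoid receptor, changed by 0.58 in its brightest probe set, but another probe set gave -0.42, so its direction is not settled.

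Of 22 genes known to be induced by estrogen, 7 rose and 1 fell, with a median change of 0.55. SRARP, a steroid receptor-associated protein, read 348, 168, 314 and 166 in combination arrays and 6.89, 16.7, 57.7 and 7.74 in control arrays (log2 change 3.51 ± 0.65, SE, adjusted p = 0.00266). MYB, a transcription factor of dividing cells, read 436, 468, 397 and 421 in combination arrays and 69.8, 83.2, 81.2 and 82.2 in control arrays (log2 change 2.38 ± 0.31, SE, adjusted p = 0.000343). The 4 treated animals differed from each other in MYB by far less than they differed from placebo. IGF1, the growth factor through which stroma stimulates uterine growth, read 7443, 8538, 5608 and 6393 in combination arrays and 2521, 3657, 3291 and 3969 in control arrays (log2 change 1.06 ± 0.18, SE, adjusted p = 0.00141). TFF3, a trefoil peptide of mucous cells, rose by 1.54 (adjusted p = 0.0101). Thus some estrogen-induced genes stood above placebo in every treated animal, while PGR and GREB1 did not pass.

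Among enzymes that make or break steroids, of which only 5 were bright enough to test, 1 rose and 1 fell. HSD17B8, a dehydrogenase able to inactivate estradiol, read 1505, 1416, 1182 and 1184 in combination arrays and 860.5, 675, 1049 and 758 in control arrays (log2 change 0.67 ± 0.17, SE, adjusted p = 0.0165). CYP1B1, which hydroxylates estradiol, read 650.5, 232, 281 and 584 in combination arrays and 1176, 811, 1258 and 723 in control arrays (log2 change -1.27 ± 0.41, SE, adjusted p = 0.0481). The arms did not overlap in CYP1B1, yet its call passed in 2 of 8 fits with 1 array left out and not with its tested probe sets averaged (-0.98, adjusted p = 0.102). Of 17 progesterone-responsive and decidual genes, 3 rose (17.6%) and 2 fell (11.8%), against 10.6% and 9.09% of all genes. Without control 3, 5 rose. MAOA, a monoamine oxidase that rises in the progesterone-exposed endometrium, read 1402, 1510.2, 1338 and 1374 in combination arrays and 683, 791, 721 and 733 in control arrays (log2 change 0.94 ± 0.16, SE, adjusted p = 0.00166). CEBPB, a transcription factor of decidual change, fell, with a change of -0.49 (adjusted p = 0.00574).

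Genes of glandular epithelium and its secretions rose together. Of 17 mucous and secretory genes, 13 rose and none fell, with a median change of 1.81. AGR2, a disulfide isomerase needed to fold mucins, read 3630.2, 4184, 3229 and 2675 in combination arrays and 388, 413, 650.3 and 557 in control arrays (log2 change 2.77 ± 0.31, SE, adjusted p = 0.000151). CXCL17, a chemokine of mucosal surfaces, read 737, 181, 455 and 383 in combination arrays and 34.2, 26.8, 24.2 and 38.1 in control arrays (log2 change 3.49 ± 0.33, SE, adjusted p = 6.31e-05). In both genes the treated animals lay several-fold above every placebo animal. DMBT1, a scavenger protein of mucosal defence, read 719.8, 529.7, 603 and 1579 in combination arrays and 58.3, 87.5, 141 and 94.5 in control arrays (log2 change 3.03 ± 0.46, SE, adjusted p = 0.000814). GCNT3, the glycosyltransferase that branches mucin sugars, rose by 3.64 (adjusted p = 0.000953). LYZ, lysozyme, which both secretory epithelium and macrophages make, read 5231, 11622, 6806 and 4787 in combination arrays and 793, 2556, 663 and 586 in control arrays (log2 change 2.82 ± 0.49, SE, adjusted p = 0.00179).

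Of 15 markers of epithelium in general, 9 rose and none fell, with a median change of 1.12, and 6 rose in every fit with 1 array left out. EPCAM, an adhesion molecule of simple epithelia, read 1665, 1737, 2474 and 2067 in combination arrays and 955, 646, 633 and 629 in control arrays (log2 change 1.47 ± 0.32, SE, adjusted p = 0.00703). MUC1, a membrane mucin of the gland surface, read 557, 546, 647 and 588 in combination arrays and 118, 143, 111 and 120.0 in control arrays (log2 change 2.21 ± 0.39, SE, adjusted p = 0.00215). WFDC2, a secreted protein of reproductive tract glands, rose by 2.29 in its brightest probe set (adjusted p = 0.00123), while another probe set gave 0.045. ESRP2, an epithelial splicing factor, rose by 1.68 (adjusted p = 0.00294), and KRT8, a keratin of simple epithelium chosen after its values were seen, by 1.61 (adjusted p = 0.0147). The mean level of all 15 markers, centred on its average over the 16 arrays, ran from 0.058 to 0.46 in combination arrays and from -0.78 to -0.71 in control arrays. Epithelial marker level therefore moved with treatment. The part of epithelial content in the changes of genes that epithelium makes was not tested.

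A few markers of stratified epithelium and nerve also rose, 33.3% and 30% of those tested, against 10.6% of all genes. Of 9 stratified and squamous markers, LGALS7B, GJB6 and PERP rose, the last being a desmosome-associated membrane protein (log2 change 1.55 ± 0.35, SE, adjusted p = 0.0091). Of 10 ciliated cell markers 1 rose, a share like that over all genes; it was AGR3, a relative of AGR2 that read 1506, 1311, 1375 and 1423 in combination arrays and 328, 315, 489 and 310.2 in control arrays (log2 change 1.97 ± 0.32, SE, adjusted p = 0.00122). The ciliary motor gene DNAH5, the tektin gene TEKT1 and the calcium-binding protein gene CAPS had changes of 1.82, 1.80 and 1.35 with adjusted p of 0.0679, 0.0688 and 0.0729. None of these 3 overlapped between the arms, which also held for 29.1% of all genes. With the fit restricted to the 2 arms compared, 7 of the 10 ciliary markers were higher, as were 1304 of all 10706 genes. Of 10 nerve markers, NPY, NEFH and MPZL2 rose; MPZL2 is a junction protein also made by epithelium (log2 change 1.54 ± 0.37, SE, adjusted p = 0.0124).

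Growth factor pathways changed in selected ligands, receptors and binding proteins. In the insulin-like growth factor axis, 5 of 17 genes rose and 2 fell, with 3 rising in 6 of the 8 fits that left out 1 array. Beside the ligand IGF1, the binding protein IGFBP2 read 3932, 3166, 3967 and 3224 in combination arrays and 1115, 937, 1141 and 867 in control arrays (log2 change 1.81 ± 0.15, SE, adjusted p = 4.02e-05). IGFBP4, another binding protein, read 5905, 5293, 5298 and 5452 in combination arrays and 3147, 3705, 2628 and 3513 in control arrays (log2 change 0.77 ± 0.17, SE, adjusted p = 0.0079). IGFBP3, the main carrier of these ligands in blood, went the other way, at 2560.1, 4471, 2829 and 3191 in combination arrays and 6771, 9354, 6812 and 8002 in control arrays (log2 change -1.26 ± 0.33, SE, adjusted p = 0.0175; chosen after its values were seen). The binding proteins thus moved in opposite directions. The intracellular adaptor IRS2 fell to 938, 1244, 1179.9 and 1223 in combination arrays, against 2284, 2744, 2341 and 2026 in control arrays (log2 change -1.03 ± 0.20, SE, adjusted p = 0.00398). PAPPA2, a protease that cuts some binding proteins of this axis, and STC1, whose product inhibits such proteases, rose by 2.98 and 1.50. These 2 genes passed in only 1 and 2 of the 8 fits with 1 array left out (both chosen after their values were seen).

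In the epidermal growth factor family, 4 of 10 genes rose and 1 fell. The receptor gene EGFR read 515, 319, 340.0 and 404 in combination arrays and 96.4, 125, 155 and 189 in control arrays (log2 change 1.47 ± 0.19, SE, adjusted p = 0.000358). BTC, its ligand betacellulin, read 292, 299, 368 and 202 in combination arrays and 69.3, 93.7, 116 and 66.9 in control arrays (log2 change 1.69 ± 0.23, SE, adjusted p = 0.000429). LRIG3, of a family of membrane proteins that modulate these receptors, fell to 231, 168, 199 and 267 in combination arrays, against 420.5, 415, 399.8 and 331 in control arrays (log2 change -0.86 ± 0.15, SE, adjusted p = 0.00185). A receptor and its ligand were therefore both higher in every treated animal, with the coreceptor ERBB2 higher by 0.54 (adjusted p = 0.0112).

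Indian hedgehog, encoded by IHH, is made by uterine epithelium and acts on the stroma below it through the receptor PTCH1, the transducer SMO and the transcription factor GLI1. IHH read 1759, 1700.3, 1568 and 1572 in combination arrays and 192, 179, 377 and 142 in control arrays, a 7.78-fold difference (log2 change 2.96 ± 0.30, SE, adjusted p = 8.62e-05). The spread among treated animals was small beside that gap. GLI1 read 548, 434, 455 and 428 in combination arrays and 289, 249, 334 and 259 in control arrays (log2 change 0.71 ± 0.20, SE, adjusted p = 0.024), and the change of PTCH1, 1.05, did not pass (adjusted p = 0.0688). SMO passed at 0.45 (adjusted p = 0.0285), with overlap. In all, 3 of 12 hedgehog genes rose, and without combination 1 only 1 did.

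Of 28 Wnt genes, 3 rose and 1 fell, close to the share over all genes. The ligand WNT5A read 1241, 1262, 1056 and 896 in combination arrays and 632, 459, 714 and 405 in control arrays (log2 change 1.03 ± 0.24, SE, adjusted p = 0.00981). Of the frizzled receptors, FZD1 rose by 0.81 (adjusted p = 0.000659) and FZD4 fell, with a change of -0.68 (adjusted p = 0.00965). SFRP1, a secreted antagonist and stromal gene, read 5457, 4294, 4237 and 4442 in combination arrays and 2028, 2098, 2360.2 and 2156 in control arrays (log2 change 1.09 ± 0.29, SE, adjusted p = 0.019). Averaged over all tested probe sets of a gene, FZD4, WNT5A and SFRP1 did not pass, with changes of -0.42, 0.76 and 1.64 (adjusted p = 0.266, 0.0867 and 0.0605). In the bone morphogenetic protein pathway, 2 of 19 genes rose (10.5%) and 1 fell (5.26%), against 10.6% and 9.09% of all genes. The receptor BMPR1B, the target ID1 and the antagonist CHRD changed by 1.07, 0.87 and -0.44. Those calls passed in at most 2 of the 8 fits with 1 array left out.

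Patterning genes of the Müllerian duct, the embryonic source of the uterus, moved in both directions, with 7 of 18 higher and 2 lower. FOXA2, a transcription factor of uterine glands, read 418, 345, 319 and 268 in combination arrays and 57.0, 68.7, 74.9 and 65.4 in control arrays (log2 change 2.25 ± 0.35, SE, adjusted p = 0.00106). MSX2, a homeobox factor of uterine epithelium, read 942, 1055, 723 and 809.8 in combination arrays and 227, 143, 276 and 199 in control arrays (log2 change 2.06 ± 0.35, SE, adjusted p = 0.00158). SOX17, a factor of glands and of vessels, rose by 1.53 (adjusted p = 0.00619). Against these gains, HOXA13 fell as described, and TBX3, a T-box factor, read 2038, 2066, 2577 and 1892 in combination arrays and 3622, 3992, 3311 and 3200.0 in control arrays (log2 change -0.72 ± 0.14, SE, adjusted p = 0.00292).

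The retinoid carriers CRABP1, CRABP2 and RBP4 rose, while ADH7, a retinol-oxidising enzyme outside the retinoid list, fell. CRABP1 and CRABP2 bind retinoic acid inside cells. CRABP2 read 651, 265, 816 and 342 in combination arrays and 27.1, 75.3, 48.3 and 46.1 in control arrays (log2 change 3.21 ± 0.43, SE, adjusted p = 0.000358). CRABP1 read 242, 488, 466 and 194 in combination arrays and 23.4, 22.3, 19.0 and 28.1 in control arrays (log2 change 3.55 ± 0.50, SE, adjusted p = 0.000487). The retinol carrier RBP4 read 952, 1686, 1373 and 561 in combination arrays and 146, 201, 541 and 238 in control arrays (log2 change 2.07 ± 0.48, SE, adjusted p = 0.0105). All 3 carriers were higher in every treated animal, whereas ADH7 was lower, as given above. RARRES2, the retinoid-responsive gene of the chemoattractant chemerin, fell to 1402, 1101, 929 and 1996 in combination arrays, against 2579.7, 3282, 2868 and 2377 in control arrays (log2 change -1.08 ± 0.22, SE, adjusted p = 0.00453). Over the list, 5 of 18 rose (3 without control 3), 2 fell and 11 did not pass. The median was -0.36, and -0.082 without combination 1.

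Several collagen genes and genes of collagen processing rose. Of 31 collagen and matrix genes, 10 rose and 3 fell; with 1 array left out, 10 or 11 rose and 0 to 2 fell. COL1A2, a chain of type I collagen, read 12052, 10394, 9654 and 8828 in combination arrays and 4095, 3248, 3360.0 and 4690.1 in control arrays (log2 change 1.42 ± 0.15, SE, adjusted p = 0.000114). COL6A3, of the microfibrillar type VI collagen, read 10266, 10644, 9399.7 and 9317 in combination arrays and 6941, 6743, 5757 and 6461 in control arrays (log2 change 0.61 ± 0.076, SE, adjusted p = 0.000263). Both differences exceed the spread within either arm. LOXL2, which cross-links collagen, rose by 1.33 (adjusted p = 0.00127), and COL15A1 by 1.16 (adjusted p = 6.27e-05), with another COL15A1 probe set at -0.18. TNC, tenascin C, a matrix glycoprotein of growing tissue chosen after its values were seen, read 1093, 670.2, 708 and 816 in combination arrays and 112, 148, 189 and 173 in control arrays (log2 change 2.37 ± 0.40, SE, adjusted p = 0.00168).

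Of 20 fibroblast markers, 7 rose and 1 fell, with a median of 0.24. THY1, a surface glycoprotein of fibroblasts, read 1867, 1351, 1365 and 1159 in combination arrays and 225, 453, 356 and 428 in control arrays (log2 change 1.98 ± 0.27, SE, adjusted p = 0.000431). MME, a membrane peptidase of endometrial stroma also called CD10, rose by 2.86 in its brightest probe set (adjusted p = 0.000801), while another gave -0.069. PRRX1, a mesenchymal transcription factor, fell to 902, 1013, 709 and 1024 in combination arrays, against 2326, 1700.1, 2151 and 1383 in control arrays (log2 change -1.03 ± 0.16, SE, adjusted p = 0.000865). Of 18 metalloproteases and inhibitors, 4 rose (22.2%) and 1 fell (5.56%), against 10.6% and 9.09% of all genes. ADAM12, a membrane metalloprotease that sheds growth factors, read 906, 536, 489.9 and 723 in combination arrays and 68.1, 74.3, 173 and 42.1 in control arrays (log2 change 2.96 ± 0.58, SE, adjusted p = 0.00374). ADAMTS2, which trims procollagen, and ADAM19 rose by 1.86 and 1.15 (adjusted p = 0.00295 and 0.00127), and MMP7, an epithelial matrix protease, by 1.63 (adjusted p = 0.0177).

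Few cell division genes passed in the combination arm. Of mitosis genes 4.76% rose, and of replication genes 4.55% rose and 4.55% fell, against 10.6% and 9.09% of all genes. MKI67, the gene of the proliferation antigen Ki-67, read 42.9, 47.1, 41.3 and 56.2 in combination arrays and 31.0, 39.2, 48.2 and 54.1 in control arrays, with overlap (log2 change 0.12 ± 0.28, SE, adjusted p = 0.807). Its signals in both arms lie close to the limit below which probe sets were left out as dim. Of 21 mitosis genes, 1 rose and none fell, with a median change of 0.36; the gene that rose was ZWINT, a kinetochore protein (log2 change 1.66 ± 0.44, SE, adjusted p = 0.0203; 5 of 8 fits with 1 array left out). TOP2A, the topoisomerase of chromosome segregation, and CCNB2, a mitotic cyclin, had changes of 1.25 and 1.40 that did not pass (adjusted p = 0.206 and 0.0679). Of 22 DNA replication genes, GINS1, of the replicative helicase, rose by 0.48 and POLE2, a polymerase subunit, changed by -0.36 (adjusted p = 0.0177 and 0.00377), and the median was -0.16. In the estradiol arm, set against the same 4 control arrays, 15 mitosis genes and 11 replication genes rose (16.5% of all genes did), with medians of 1.50 and 0.56. In the tamoxifen arm 0 and 1 did (8.59% of all genes).

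Among regulators that admit cells to the cycle, 3 of 18 rose (16.7%) and 2 fell (11.1%), against 10.6% and 9.09% of all genes. CCND1, the cyclin of early G1, read 415, 299.9, 637 and 436 in combination arrays and 132, 164, 229 and 158 in control arrays (log2 change 1.34 ± 0.24, SE, adjusted p = 0.00234). CDKN1B, the inhibitor p27 that holds cells out of the cycle, read 535, 572, 589 and 691 in combination arrays and 1220.2, 1296, 1347 and 1354 in control arrays (log2 change -1.13 ± 0.16, SE, adjusted p = 0.000614). The transcription factor E2F3 rose by 1.14 (adjusted p = 0.00365). So an activator and an inhibitor of G1 progress moved in opposite directions in all 4 treated animals. The other 13 genes of the list did not pass, and the median change over the list was -0.14.

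**Figure D3:**
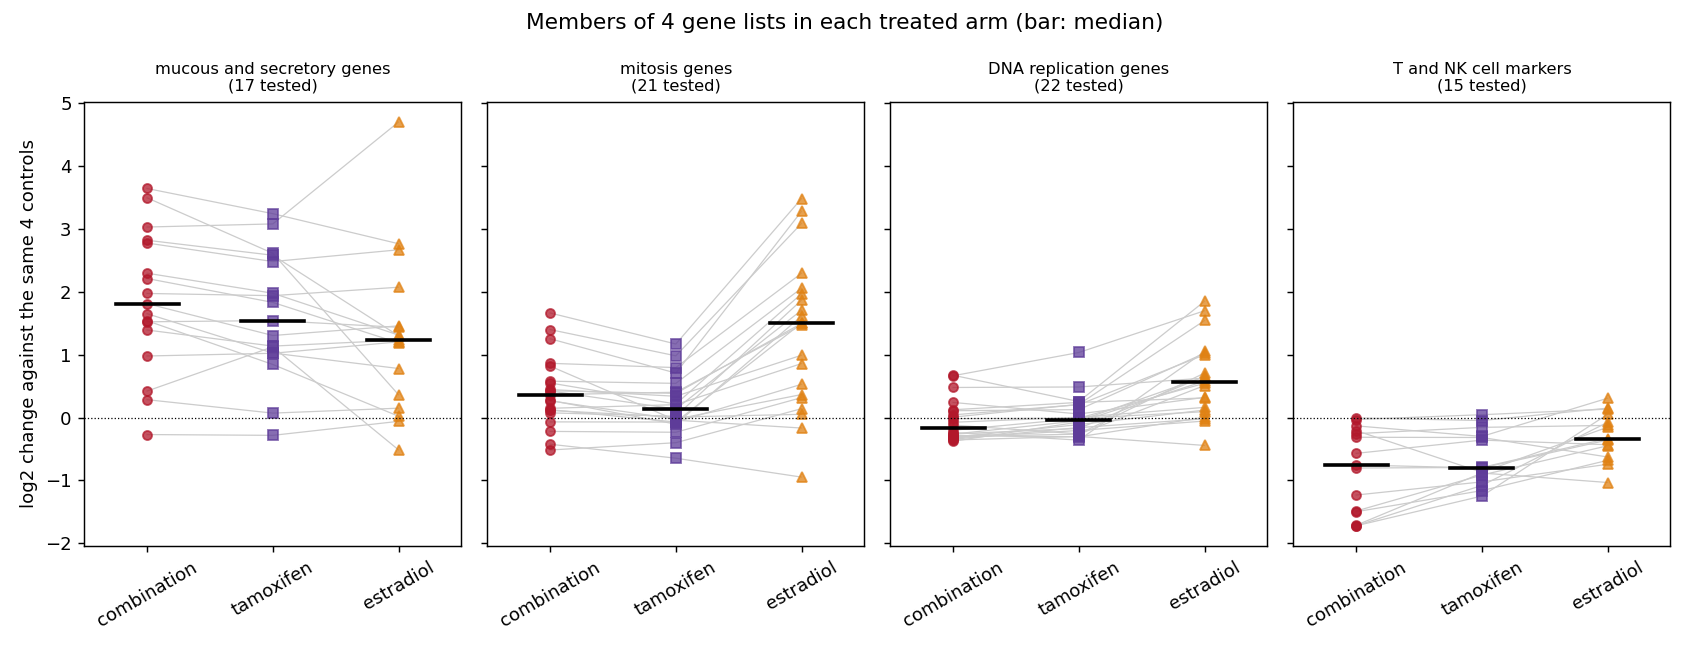
Log2 change against the same 4 control arrays of every tested member of 4 lists (mucous and secretory genes, mitosis genes, DNA replication genes, T and NK cell markers), in the combination, tamoxifen and estradiol arms; each point is a gene and each bar the list's median. The mitosis median is 0.36 in the combination arm, 0.13 in the tamoxifen arm and 1.50 in the estradiol arm.

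Genes of protein folding in the endoplasmic reticulum and of sterol synthesis rose in part. Of 21 unfolded protein response genes, 8 rose and 3 fell (1 with each array centred on its median). PDIA6, a protein disulfide isomerase, read 2186, 2242, 2302 and 2285 in combination arrays and 1251, 1423, 1221 and 1171 in control arrays (log2 change 0.83 ± 0.11, SE, adjusted p = 0.000265). DNAJB11, an endoplasmic reticulum cochaperone, rose by 0.68 (adjusted p = 0.000616), and ASNS, asparagine synthetase, by 1.17 (adjusted p = 0.00179). DDIT3, the stress factor CHOP and a marker of unresolved stress, fell, with a change of -0.71 (adjusted p = 0.00759; chosen after its values were seen). Folding enzymes and the stress factor thus moved in opposite directions. Of 20 lipid synthesis genes 4 rose (20%, against 10.6% of all genes), led by the sterol carrier STARD4 at 1.01 and the sterol demethylase CYP51A1 at 0.88 (adjusted p = 0.00311 and 0.0106). Without combination 2, 2 rose.

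Of 16 capillary and fat lipid uptake genes, 2 rose (12.5%), 3 fell (18.8%) and 11 did not pass, against 10.6% and 9.09% of all genes. In 7 of the 8 fits with 1 array left out, 1 rose. MFSD2A, a carrier of lysophospholipids best known from the blood-brain barrier, read 433, 519, 299.7 and 314 in combination arrays and 27.6, 13.6, 44.2 and 55.1 in control arrays, a 10.6-fold difference (log2 change 3.41 ± 0.43, SE, adjusted p = 0.000263). GPIHBP1, the capillary anchor of lipoprotein lipase, read 56.0, 88.7, 60.9 and 40.4 in combination arrays and 134, 197, 209 and 268 in control arrays (log2 change -1.65 ± 0.30, SE, adjusted p = 0.00253). CD36, a fatty acid transporter of capillaries, fat cells and macrophages, read 186, 613, 373 and 437 in combination arrays and 1052, 1127, 1115 and 1631 in control arrays (log2 change -1.70 ± 0.39, SE, adjusted p = 0.00975). The arms did not overlap in any of these 3 genes, which also held for 29.1% of all genes. Of the 21 general endothelium markers only SOX17 rose and only EMCN, a sialomucin of capillaries and veins, fell (log2 change -0.76 ± 0.18, SE, adjusted p = 0.0126).

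Genes tied to quiescence and early response changed in both directions, more of them lower, while cell death genes split. Of 18 FOXO and muscle-atrophy genes, 7 fell and 1 rose, with a median of -0.47; the factor FOXO4, the sestrin SESN1 and IRS2 fell, with changes of -0.85, -0.76 and -1.03. BCL2L11, the death-promoting protein BIM and a known FOXO target, read 299, 321, 290.3 and 371 in combination arrays and 1237, 1071, 977 and 849.9 in control arrays (log2 change -1.67 ± 0.13, SE, adjusted p = 4.02e-05). Other death-promoting genes rose: BAX by 0.61 and BIK by 1.37 (adjusted p = 0.00248 and 0.0049). Apoptosis genes as a list therefore split, with 4 of 17 higher (2 without combination 4) and 3 lower.

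Of 22 immediate early genes, 4 fell (18.2%) and 1 rose (4.55%), against 9.09% and 10.6% of all genes. Without control 2, 2 fell. FOS, a component of the AP-1 transcription factor, read 256, 272, 265 and 459.8 in combination arrays and 868, 596, 633 and 1957 in control arrays (log2 change -1.55 ± 0.31, SE, adjusted p = 0.00437). The zinc finger factor KLF6 fell, with a change of -0.79 (adjusted p = 0.013), and GADD45A, a stress-induced growth arrest gene that is also on the FOXO list, rose by 0.57 (adjusted p = 0.00519). Averaged over all tested probe sets of the gene, neither passed, with changes of -0.48 for KLF6 and 0.25 for GADD45A (adjusted p = 0.159 and 0.129). Of 21 cytosolic ribosomal protein genes, 6 fell, by small amounts, and 1 rose. RPL30 read 10632, 9177, 9092 and 10203 in combination arrays and 12607, 15109, 14076 and 12503 in control arrays (log2 change -0.47 ± 0.084, SE, adjusted p = 0.00215), and did not pass with its tested probe sets averaged (-0.29, adjusted p = 0.124). Centring each array on its median, or quantile normalization, left 2 ribosomal genes lower, so the count depends on the scaling.

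Lymphocyte genes were lower under the combination. Of 15 T and NK cell markers, 6 fell and none rose, with a median of -0.75. CD8B, a chain of the coreceptor of cytotoxic T cells, read 50.8, 27.8, 45.6 and 88.2 in combination arrays and 138, 178, 229 and 155 in control arrays (log2 change -1.71 ± 0.25, SE, adjusted p = 0.000654). NKG7, a granule protein of cytotoxic cells, read 79.8, 42.3, 57.7 and 101 in combination arrays and 135, 297, 226 and 162 in control arrays (log2 change -1.49 ± 0.26, SE, adjusted p = 0.00215). Signals were modest in both arms but did not overlap. CD8A and EOMES, a transcription factor of the same cells, fell with changes of -1.23 and -1.50 (adjusted p = 0.00961 and 0.00202; another EOMES probe set gave -0.30), and CD8A missed the threshold with its probe sets averaged (-1.16, adjusted p = 0.0515). IL15, which supports these lymphocytes, read 195, 154, 111 and 157 in combination arrays and 563, 641, 421 and 468 in control arrays (log2 change -1.74 ± 0.22, SE, adjusted p = 0.000263). The mean level of the 15 markers, centred over the 16 arrays, ran from -0.80 to -0.066 in combination arrays and from 0.29 to 0.77 in control arrays.

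In the other immune lists 1 to 3 members passed. Among 15 macrophage markers, LYZ rose and TYROBP, a signalling adaptor of myeloid and NK cells, fell (log2 change -1.24 ± 0.40, SE, adjusted p = 0.045), with overlap between the arms and in 2 of 8 fits with 1 array left out. Of 6 mast cell and granulocyte markers FCER1A fell, while KIT, a receptor that epithelium can also express, rose by 1.23 (adjusted p = 0.0266, passing in 4 of 8 fits with 1 array left out). CCL11, the eosinophil attractant eotaxin, read 74.5, 255, 192 and 789 in combination arrays and 1268, 1360.3, 811 and 1143 in control arrays. The arms did not overlap, but the change of -2.25 did not pass (adjusted p = 0.171). Of 18 interferon response genes, IFIT1, HERC6 and MX2 fell, with changes of -0.99, -1.13 and -0.91; with 1 array left out, 0 or 1 did. Of 12 complement genes CD55, which shields cells from complement, fell (log2 change -1.27 ± 0.32, SE, adjusted p = 0.0161). SDC1, listed as a plasma cell marker and also an epithelial heparan sulfate proteoglycan, rose by 2.28 (adjusted p = 0.000241). Of 7 mesothelium and adipocyte markers MSLN rose by 2.17 and ITLN1 fell, with a change of -3.08, calls that held in 3 and 1 of 8 fits with 1 array left out.

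**Figure D4:**
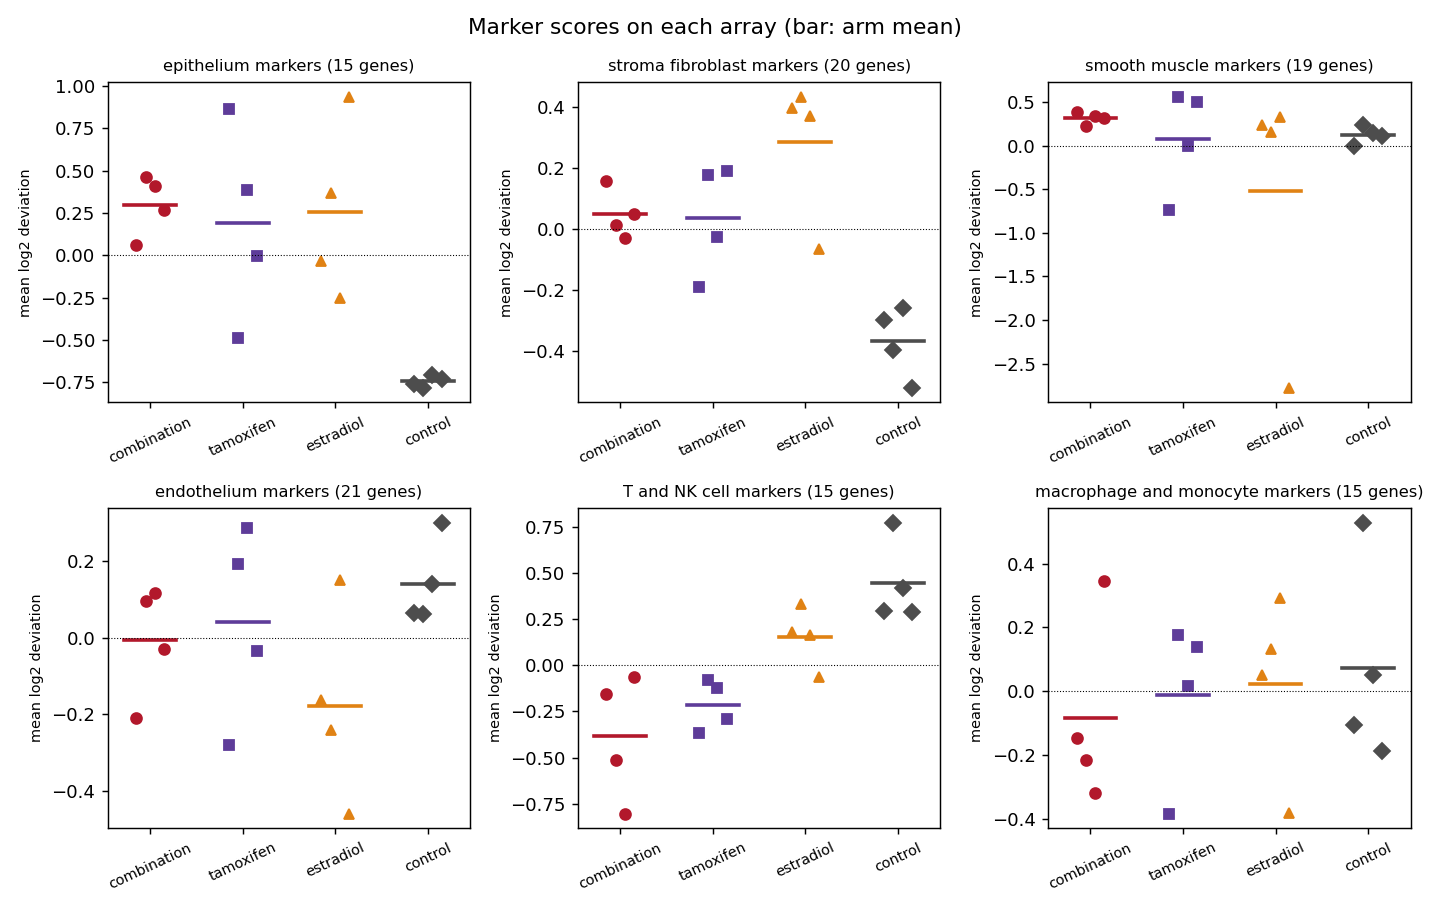
Mean centred log2 level of 6 cell type marker lists on each array, in the order combination, tamoxifen, estradiol and control; each point is an array. Epithelium scores lie between 0.058 and 0.46 in combination arrays and between -0.78 and -0.71 in control arrays, T and NK scores run the other way, and 1 estradiol array has a smooth muscle score of -2.78.

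The design also allows the combination to be set against each drug alone. Against tamoxifen alone no gene passed (0 of 10706 by limma, with 396 genes at an unadjusted p under 0.05). That number is below what such a p would let through on average if no gene differed. The errors of the differences between these arms varied by gene. They were wide for DLK1, which differed by 1.56 ± 0.92, NPY, by 0.57 ± 0.76, and LGALS7B, by 1.06 ± 0.61 (log2, SE). Other named genes, such as COL6A3 and IGFBP2, had smaller errors. With 4 arrays per arm, the absence of calls does not show that the arms were alike. Against estradiol alone 142 genes passed (1.33%), 48 higher (0.448%) and 94 lower (0.878%). Leaving out any 1 of the 8 arrays moved this count by over 1.5 times: it was 18, 70, 462 and 57 without estradiol 1 to 4 and 31, 28, 26 and 56 without combination 1 to 4. Estradiol 4 had a smooth muscle marker score of -2.78, far below the other arrays, of which the next lowest was tamoxifen 1 at -0.73.

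Several genes that passed as higher than placebo also stood above estradiol alone. CXCL17 read 737, 181, 455 and 383 in combination arrays and 45.3, 61.1, 39.3 and 23.9 in estradiol arrays (log2 difference 3.13 ± 0.33, SE, adjusted p = 0.00253), and it passed in all 8 fits with 1 array left out. TAGAP, a T cell activation GTPase-activating protein, read 1136, 931, 1472 and 884 in combination arrays and 271, 162, 282 and 199 in estradiol arrays (log2 difference 2.26 ± 0.30, SE, adjusted p = 0.0046). SCUBE2, a secreted carrier of hedgehog proteins, read 693, 555, 659 and 515 in combination arrays and 208, 224, 266 and 129 in estradiol arrays (log2 difference 1.56 ± 0.23, SE, adjusted p = 0.00647). These last 2 were chosen after their values were seen; against estradiol they passed in all 8 fits with 1 array left out, but against placebo, with changes of 1.07 and 0.82 (adjusted p = 0.0273 and 0.0254), each passed in 3 of 8. NPY read 1841, 574, 2338 and 1876 in combination arrays and 62.1, 130.4, 113 and 18.9 in estradiol arrays (log2 difference 4.38 ± 0.76, SE, adjusted p = 0.0178, 5 of 8 fits). MAOA read 1402, 1510.2, 1338 and 1374 in combination arrays and 768, 862, 732 and 704 in estradiol arrays (log2 difference 0.87 ± 0.16, SE, adjusted p = 0.0217, 3 of 8 fits). Against the shared control arrays, the changes of NPY were 5.28 in the combination, 4.71 in the tamoxifen and 0.91 in the estradiol arm.

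Below estradiol alone lay IL15, PCOLCE and MYC among the steadier genes. IL15 read 195, 154, 111 and 157 in combination arrays and 309, 458, 429.9 and 379.8 in estradiol arrays (log2 difference -1.34 ± 0.22, SE, adjusted p = 0.0136). PCOLCE, an enhancer of procollagen trimming, read 855, 513, 509 and 577 in combination arrays and 2219, 1599, 1265 and 1309 in estradiol arrays (log2 difference -1.37 ± 0.21, SE, adjusted p = 0.0102). IL15 and PCOLCE passed in all 8 fits with 1 array left out. MYC, a growth-promoting transcription factor, read 437, 397, 437 and 381 in combination arrays and 1179, 983, 1146 and 673 in estradiol arrays (log2 difference -1.23 ± 0.20, SE, adjusted p = 0.0149, 7 of 8 fits; MYC and PCOLCE were chosen after their values were seen). Against placebo PCOLCE rose by 0.93 under the combination (adjusted p = 0.00953), while MYC, at -0.17, did not pass (adjusted p = 0.623).

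Cell division genes also differed between the combination and estradiol arms, with less steady calls. MKI67 read 42.9, 47.1, 41.3 and 56.2 in combination arrays and 167, 143, 70.2 and 161 in estradiol arrays (log2 difference -1.37 ± 0.28, SE, adjusted p = 0.0341). Of the 21 mitosis genes 6 were lower than in the estradiol arm and of the 22 replication genes 8 were, against 0.878% of all genes; none of either list was higher. Without estradiol 3, 14 mitosis genes were lower, and without any other 1 of the 8 arrays none was. The median difference of the mitosis genes moved less than these counts. It was -1.10 with all arrays and ran from -1.38 to -0.95 with 1 array left out. Replication genes numbered 10 without estradiol 3 and 1 to 3 without any other 1 of these arrays. Their median difference was -0.69 with all arrays and ran from -0.78 to -0.52 with 1 array left out. MKI67 passed in 1 of the 8 fits, and without estradiol 4 its adjusted p was 0.0748. CYP1B1, lower than placebo, was also lower than in the estradiol arm (log2 difference -1.79 ± 0.41, SE, adjusted p = 0.0484, 1 of 8 fits).

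**Figure D5:**
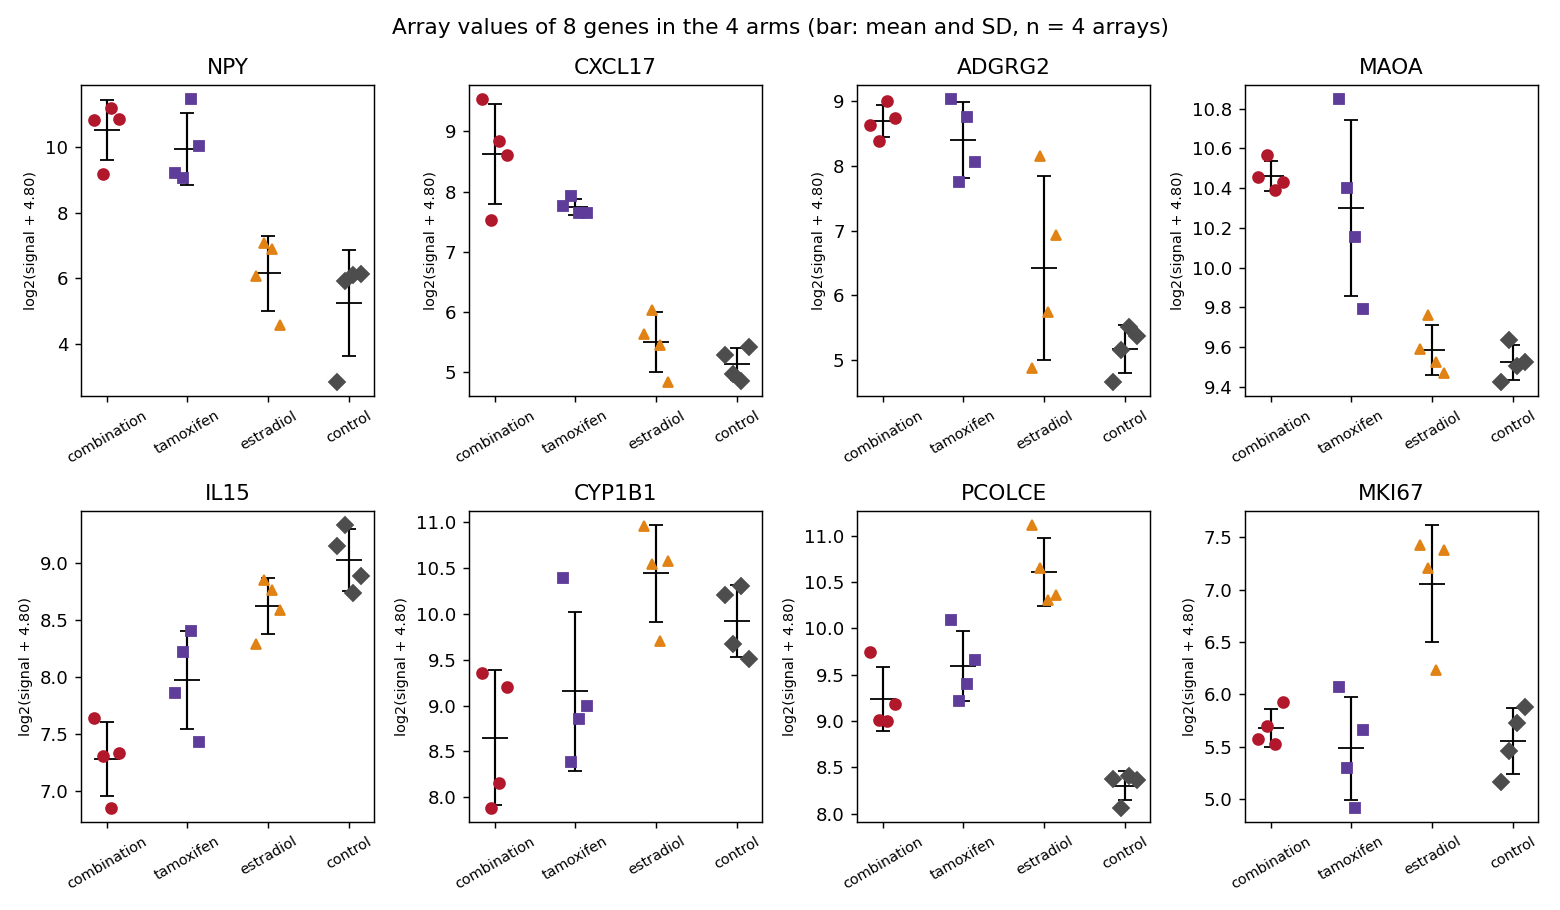
Mean log2(signal + 4.80) with SD over 4 arrays, and each array's value, for 8 genes in the combination, tamoxifen, estradiol and control arms. NPY and CXCL17 are high in both arms given tamoxifen, MKI67 is highest in the estradiol arm, and IL15 is lowest in the combination arm.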

How the data were processed

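RNA from frozen endometrium was extracted with Tri Reagent, purified on columns and amplified in a single round with Enzo reagents, per the labels' protocols. The deposited values are MAS5 intensities, linear and already scaled: on all 16 arrays their mean, with 2% trimmed at each end, was 250.0, and they ran from 0.0242 to 23400.9. GCOS, Affymetrix Expression Console and MAS5 are named without versions, per the submitters' processing notes. The samples are cynomolgus while the array was designed for rhesus macaque, so probes that mismatch the sequence can read low.

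From these values, log2(intensity + 4.80) was computed, the pseudocount being the 10th percentile of all values. The 99 control probe sets were left out, and so was the dimmest 40% of the others, those averaging below 5.36 on the log2 scale across the series. limma 3.58.1 in R 4.3.3 fitted 1 mean per arm to all 16 arrays (12 residual degrees of freedom, eBayes with trend), with Benjamini-Hochberg adjustment over 31660 probe sets and calls at 0.05. Symbols were read from GEO's platform annotation: 24956 probe sets had 1 symbol, 361 several and 27449 none. A gene was followed through its brightest probe set with 1 symbol; of 4576 genes with more than 1 tested probe set, 19 had probe sets called in opposite directions. The fit was tested on simulated data with known changes.

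The genes named are the 15 highest and 15 lowest changes without overlap between the arms, the 4 best-ranked tested members of every list by p (fewer in shorter lists), and ESR1, ESR2, PGR, GREB1, IGF1, MKI67, TOP2A and TFF3; of 145 genes named, 10 lie outside this rule. The members and lists were chosen with earlier results of these data known. The labels name the samples of an arm only by number; each is taken as a separate animal of the randomized study. Same-numbered combination and control arrays did not deviate together, so the numbers were not used as pairs. Alternatives covered the pseudocount, the filter, the scaling, the arrays and the probe sets. No sequences or coordinates are given, because the gene table used here belongs to another assembly than the array.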

Additional observations from a re-analysis of the deposited data

Results flagged for a closer look

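In 17 of 290 groups of 4 arrays (5.86%), 1 array lay far from the other 3, with a gap of more than 0.829 of the group's range, Dixon's critical value for 4 samples. Chance flags about 1 in 20 groups, close to this share. In the combination arm, NPY was low in replicate 2 (574), FOXO4 was low in replicate 1 (127), WFDC2 was low in replicate 1 (3364), LOC714616 was high in replicate 1 (235), SOX17 was high in replicate 2 (3076) and FOS was high in replicate 4 (459.8). In the control arm, NPY was low in replicate 1 (2.30), MYB was low in replicate 1 (69.8) and SESN1 was low in replicate 1 (723), while EPCAM was high in replicate 1 (955). PLSCR4 was low in replicate 2 of the control arm (489), and so was PCOLCE (263). In control 3, KRT23 was low (147), NCOA2 was low (1616) and AGR3 was high (489), and in control 4 TXLNB (217) and CD36 (1631) were high. Each value is a signal, and no cause was tested.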

How the results depend on the processing

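For combination against control, leaving out 1 array at a time gave 3124 to 4412 probe sets (1707 to 2204 higher, 1417 to 2208 lower) and 1333 to 1737 genes (756 to 992 higher, 577 to 860 lower); the lowest count of lower genes was without combination 1. Using only probe sets with 1 symbol left 1565 lower probe sets, fewer because fewer were tested. Centring each array on its median gave 1648 genes, of which 60.6% were higher against 53.9% as reported. Some alternatives gave more than the 2111 genes reported. The count was 2576 without estradiol 4 and tamoxifen 1, and 2346 with only the arms compared in the fit. It was 2258 with only probe sets of 1 symbol and 2238 with the probe sets of a gene averaged. No paired design is stated; with the replicate number as a block, 4411 probe sets and 1872 genes passed (1028 higher, 844 lower), and the deviations of same-numbered arrays correlated at 0.0277, -0.0383, 0.0798 and -0.0738. NR3C1 reversed to -0.019 when all its tested probe sets were averaged, as its probe sets disagree. GLI1, GINS1 and MMP7 passed in 5, 6 and 6 of 8 fits with 1 array left out, SMO in 3, and HSD17B8, SFRP1, CD55 and IGFBP3 in 7. For combination against estradiol, leaving out 1 array gave 18 to 462 genes (8 to 165 higher, 10 to 297 lower). Median centring gave 83 (46 lower), no filter on dim probe sets 82 (48 lower), and fitting only the arms compared 31 (15 higher, 16 lower). Dropping estradiol 4 and tamoxifen 1 gave 57 lower, and averaging the probe sets of a gene gave 236 (173 lower). The causes were not tested. Against tamoxifen the count of genes was 0 in each of these alternatives. With 4 arrays per arm and no detection calls, changes of dim genes are the least certain.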
